A study of Mus musculus with 4 samples.

Results

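The 40 mouse genes described here are imprinted genes from 20 loci, taken by name and grouped by locus and by the parent whose copy is active. A gene's platform symbol decided which probe sets belonged to it. Of the 40 genes, 36 had at least 1 probe set annotated to them alone, out of 18193 such genes on the array. They had 93 probe sets, of which 56 were bright enough to be tested, and these stood for 21 genes. Rtl1, Zrsr1 and Peg13 had no probe set, and H19 had only one that it shared with another symbol.

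The samples were 2 of total RNA from L929, a fibroblast line derived from mouse connective tissue, and 2 of total RNA from NIH3T3, a fibroblast line derived from mouse embryos. The cells of both lines were unstimulated, and no transgene, deletion or agent is given for either. The study set L929, as cells prone to necrosis, against NIH3T3, as cells prone to apoptosis. Each RNA was hybridised to 1 Affymetrix whole-genome mouse array, a short-oligonucleotide array that reads each transcript with 1 or more probe sets. The labels do not say whether the replicates were separate cultures, so each p-value reflects no more than the spread of the arrays at hand, and that spread may be technical. Each group is a single established line, and a difference between them is a difference between these lines.

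An imprinted gene carries a mark, mostly DNA methylation placed in the egg or the sperm, that keeps 1 parental copy silent. Imprinted genes lie in clusters in which a methylated control region sets the state of several genes at once, often through a long non-coding RNA. Many of the paternally active genes promote growth of the embryo and placenta, and several maternally active genes restrain it. Many are bright in embryonic tissue and in mesenchymal cells and dim after birth. These arrays measure the summed RNA of both copies, so they hold no information on which parental copy was read. In bulk RNA, fewer cells expressing a gene and less RNA per cell cannot be told apart.

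Of the 21 tested imprinted genes, 14 were lower in L929 and 0 were higher, and 7 were not called. The calls came from limma at a Benjamini-Hochberg adjusted p under 0.05 and a fold above 1.5, with 1 tested probe set standing for each gene, the one with the highest mean log2 signal over the 4 arrays. Over all 12676 tested genes 34.8% were called, 17.3% higher in L929 and 17.6% lower. The median log2 difference, L929 minus NIH3T3, was -1.28 over the 21 imprinted genes and 0.01 over all tested genes. At the level of single probe sets, 34 of 56 were lower, 1 was higher and 21 were not called, against 31.6% of all 27438 tested probe sets called, 14.9% higher and 16.7% lower.

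These counts rest in part on which probe sets could be tested. A probe set was tested only where both arrays of at least 1 line exceeded a scaled signal of 17.3, the 40th percentile of all signals. Of the 56 tested probe sets, 28 passed through the NIH3T3 arrays alone and 0 through the L929 arrays alone, which favours probe sets that are lower in L929. Of these 28, 24 were called lower and 4 were not called. Among the other 28, which passed in both lines, 10 were lower in L929, 1 was higher and 17 were not called. Over the 21418 probe sets of the whole array that passed in both lines, 14.2% were lower and 13.7% higher. With no filter at all, 14 of the 36 imprinted genes were lower in L929 and 0 were higher, beside 22.9% of 18193 genes called, 11.6% lower and 11.4% higher. The median difference without the filter was -0.47.

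**Figure D1:**
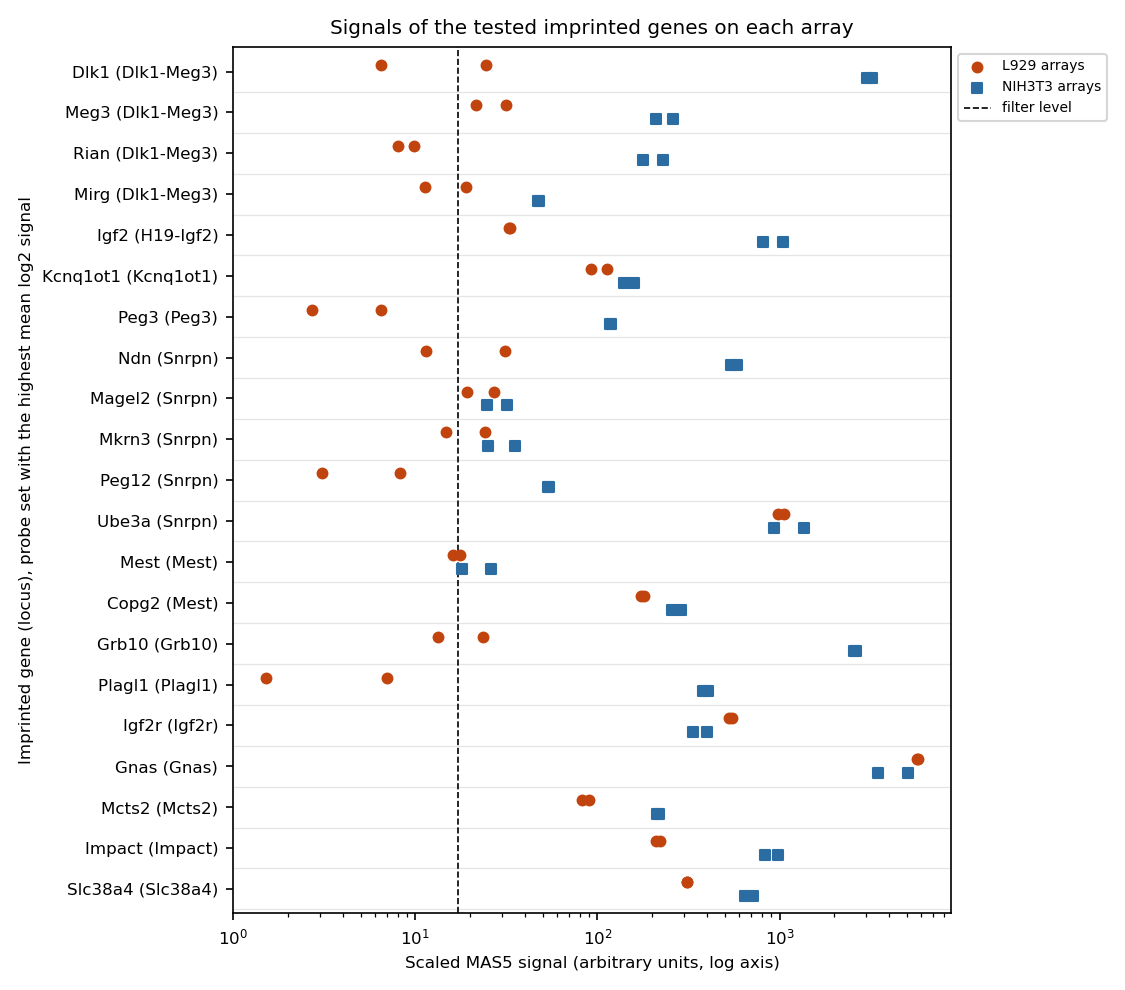
Scaled signal (arbitrary units, log axis) of the probe set that stands for each of the 21 tested imprinted genes, with circles for the 2 L929 arrays, squares for the 2 NIH3T3 arrays and a dashed line at the level of 17.3 used by the filter. The L929 circles of Dlk1, Grb10, Ndn and Plagl1 sit near or below that line while their NIH3T3 squares lie between 380.1 and 3237, and the symbols of Ube3a overlap.

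The genes with a paternally active copy numbered 13 among those tested, and 9 of them were lower in L929. Of the 7 tested genes with a maternally active copy, 5 were lower. These were Meg3, Rian and Mirg, which share the Dlk1-Meg3 locus, Grb10, and Copg2, which lay just past the fold asked for. Over all tested genes the share lower was 17.6%. Of the 21 tested imprinted genes, 10 passed the filter through the NIH3T3 arrays alone, on the probe set that stood for them. Among these 10, 8 were called lower, so the counts and medians of the classes rest in part on the filter. The median difference was -2.04 for the paternally active genes and -1.28 for the maternally active ones, and the difference between these classes was not tested. Gnas, whose active copy depends on the isoform, was not called. The lower genes lay at 10 of the 20 loci.

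Promoter sequences of 5 of these genes are shown because 4 of them had the largest differences on any probe set and the fifth, Igf2r, had the only probe set annotated to a single imprinted gene that was called higher. Each is the RefSeq window of 300 bases on GRCm38.p6, read 5′ to 3′ from 250 bases before to 50 after the annotated start, with every CG dinucleotide, the site of DNA methylation, in capitals. The windows are Dlk1 (chr12:109452573-109452872, plus strand), Ndn (chr7:62348027-62348326, plus strand), Plagl1 (chr10:13090582-13090881, plus strand), Grb10 (chr11:12037371-12037670, minus strand, the first of its windows) and Igf2r (chr17:12769657-12769956, minus strand).
Dlk1: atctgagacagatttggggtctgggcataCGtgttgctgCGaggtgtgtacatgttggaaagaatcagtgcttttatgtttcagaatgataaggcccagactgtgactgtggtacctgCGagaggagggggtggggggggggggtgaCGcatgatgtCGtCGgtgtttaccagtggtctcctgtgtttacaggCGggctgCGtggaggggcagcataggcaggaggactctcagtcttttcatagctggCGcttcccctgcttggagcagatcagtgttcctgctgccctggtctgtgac
Ndn: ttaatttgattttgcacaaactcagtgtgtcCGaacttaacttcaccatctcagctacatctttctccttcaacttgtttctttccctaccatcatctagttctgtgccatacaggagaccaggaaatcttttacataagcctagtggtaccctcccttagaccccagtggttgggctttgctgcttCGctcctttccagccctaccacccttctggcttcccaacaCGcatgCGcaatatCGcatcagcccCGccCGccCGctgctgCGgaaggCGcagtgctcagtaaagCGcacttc
Plagl1: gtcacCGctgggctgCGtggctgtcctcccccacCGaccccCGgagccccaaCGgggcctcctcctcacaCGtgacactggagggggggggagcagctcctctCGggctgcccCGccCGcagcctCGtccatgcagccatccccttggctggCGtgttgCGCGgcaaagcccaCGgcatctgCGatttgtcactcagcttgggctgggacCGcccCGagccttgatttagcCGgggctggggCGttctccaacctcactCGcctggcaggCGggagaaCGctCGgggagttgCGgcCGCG
Grb10: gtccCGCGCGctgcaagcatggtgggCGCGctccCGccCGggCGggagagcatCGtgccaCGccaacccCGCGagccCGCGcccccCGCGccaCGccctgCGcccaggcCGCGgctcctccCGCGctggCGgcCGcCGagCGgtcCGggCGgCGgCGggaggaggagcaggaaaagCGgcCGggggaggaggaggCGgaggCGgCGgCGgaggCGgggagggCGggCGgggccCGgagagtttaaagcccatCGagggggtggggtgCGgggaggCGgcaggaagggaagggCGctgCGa
Igf2r: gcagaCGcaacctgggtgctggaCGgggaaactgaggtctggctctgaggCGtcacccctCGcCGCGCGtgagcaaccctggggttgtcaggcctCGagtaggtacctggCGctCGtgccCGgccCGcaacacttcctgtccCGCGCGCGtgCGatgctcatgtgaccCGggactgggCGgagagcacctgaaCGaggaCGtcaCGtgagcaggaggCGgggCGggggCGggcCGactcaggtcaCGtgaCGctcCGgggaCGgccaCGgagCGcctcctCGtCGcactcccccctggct
The Dlk1 window held 9 CG dinucleotides and the Ndn window 11, while Plagl1 had 26, Igf2r 34 and Grb10 45. TGCCGC, the methylated motif that ZFP57 binds, was searched on both strands and stood once in the Plagl1 and once in the Grb10 window, on the minus strand of each gene's window. It was not in the windows of Dlk1, Ndn or Igf2r. Of 50 windows of 33 imprinted genes, 13 (26.0%) held the motif, against 11.6% of all 32851 windows. The median CG count per window was 13 for the imprinted genes and 7 for all windows, and the median observed over expected CG ratio was 0.60 for the imprinted genes and 0.38 for all windows. Among the imprinted genes, 6 of 20 windows (30.0%) of genes lower in L929 held the motif, 2 of 12 (16.7%) of tested genes that were not called held it, both from overlapping windows of Mest, and 5 of 17 (29.4%) of genes that were not tested held it. Windows of 1 gene can overlap, no methylation was measured, and a match of letters is not a bound site.

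At the Dlk1-Meg3 locus on chromosome 12 all 4 measured genes were lower in L929, Dlk1 from the paternal copy and the non-coding RNAs Meg3, Rian and Mirg from the maternal one. Dlk1 encodes a transmembrane and shed relative of the Notch ligands that holds back fat cell differentiation. Its brighter probe set had scaled signals of 24.3 and 6.51 on the L929 arrays, against 3237 and 3028 on the NIH3T3 arrays. The means were 15.4 ± 12.6 in L929 and 3133 ± 147 in NIH3T3 (SD, n = 2 each). The log2 difference was -7.18 ± 0.31 (SE, limma, adjusted p = 8.97e-07), the largest among the imprinted probe sets. No fold is given, because 1 of the 2 L929 arrays lay under the level of 17.3. The dimmer Dlk1 probe set had 5.07 and 8.35 in L929, against 38.9 and 43.6 in NIH3T3, lower by at least 2.39-fold (adjusted p = 0.00194). Such a bound sets the geometric mean of the NIH3T3 signals, their mean on the log2 scale, against 17.3 where both L929 arrays lie under it. Other folds come from log2 of the signal plus an offset of 8.01, which understates the change of dim probe sets.

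Meg3, a long non-coding RNA, had 11 probe sets, of which 9 were tested and 6 were lower. The clearest had 0.959 and 1.10 in L929, against 312 and 270.0 in NIH3T3, lower by at least 16.8-fold (log2 difference -5.04 ± 0.25, adjusted p = 1.91e-06). A second had 4.47 and 5.05 in L929, against 231 and 244 in NIH3T3, lower by at least 13.8-fold (adjusted p = 3.77e-06). The one that stood for the gene kept 21.4 and 31.4 in L929, against 209.9 and 261 in NIH3T3, a 7.11-fold difference (adjusted p = 2.94e-05). The lines did not overlap on any of these 3 probe sets, and on the last of them both L929 arrays were above the level. Among the remaining 3 called probe sets the log2 difference was -3.37, -2.32 and -1.26. The last of these lost its call in 7 alternatives, among them without L929 replicate 2 (adjusted p = 0.206), NIH3T3 replicate 1 (0.103) or NIH3T3 replicate 2 (0.2). The 3 tested Meg3 probe sets that were not called lay near the level in both lines, between 17.3 and 29.7 in L929 and between 27.0 and 37.2 in NIH3T3, with log2 differences of -0.34 to -0.13.

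Rian, a non-coding RNA that hosts C/D box small nucleolar RNAs, had 3 of 4 tested probe sets lower. Its brightest gave 9.82 and 8.02 in L929, against 177 and 230.2 in NIH3T3, lower by at least 11.7-fold (log2 difference -3.63 ± 0.25, adjusted p = 1.21e-05). The probe set that was not called had 6.10 and 28.3 in L929, against 34.0 and 49.0 in NIH3T3 (adjusted p = 0.0814). There the L929 arrays stood apart from each other, and the probe set was called without L929 replicate 2 (adjusted p = 0.00863) and with the replicate number as a block (adjusted p = 0.0258). Mirg, which hosts microRNAs, was lower on both of its tested probe sets. One had 5.36 and 5.82 in L929, against 47.0 and 72.4 in NIH3T3, lower by at least 3.38-fold (adjusted p = 0.000569). The other had 11.3 and 19.014 in L929, against 47.5 and 47.2 in NIH3T3 (log2 difference -1.28, adjusted p = 0.00919), and this call ended without either NIH3T3 array (adjusted p = 0.0546 without replicate 1 and 0.053 without replicate 2). The lines did not overlap on either Mirg probe set.

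These 3 RNAs are the annotated hosts of microRNAs. By RefSeq coordinates on GRCm38.p6, Meg3 spans 3 of the tabulated mature microRNAs, Rian 6 and Mirg 19. A few of the mature sequences are shown with the seed, bases 2 to 8, in capitals, to show the kind of product these lower host RNAs carry. The first comes from within Rian and the others from within Mirg.
miR-370-3p: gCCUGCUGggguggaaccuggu
miR-410-3p: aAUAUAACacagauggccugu
miR-453: aGGUUGCCucauagugagcuugca
miR-496a-5p: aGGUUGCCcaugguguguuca
The seed of miR-453 and miR-496a-5p, GGUUGCC, was the only one that 2 mature microRNAs of these hosts shared. The microRNAs themselves were not measured here.

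At the H19-Igf2 locus on chromosome 7, Igf2, the paternally active gene of insulin-like growth factor 2, was lower in L929. Its brighter probe set had 33.2 and 32.9 in L929, against 815 and 1041 in NIH3T3, with means of 33.0 ± 0.202 in L929 and 928 ± 160.2 in NIH3T3 (SD, n = 2 each). This was a 22.6-fold difference (log2 difference -4.50 ± 0.15, limma adjusted p = 2.75e-07), and the signal was above the level on all 4 arrays. A dim second probe set had 14.6 and 1.56 in L929, against 26.5 and 33.7 in NIH3T3, lower by at least 1.73-fold (adjusted p = 0.0333), a call that ended in 6 alternatives, among them without L929 replicate 2 (adjusted p = 0.179), NIH3T3 replicate 1 (0.104) or NIH3T3 replicate 2 (0.172). The maternally active non-coding RNA H19 could be seen only through a probe set annotated to both H19 and the microRNA gene Mir675. It had 2.30 and 1.69 in L929, against 10.2 and 10.7 in NIH3T3, below the level on all 4 arrays, and was not tested. Igf2r, the receptor at the cell surface that takes up and clears IGF2, was not called at the gene level. Its signals lay above those of NIH3T3 in L929 on both probe sets of its own, and it is described with the genes that were not lower.

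Grb10, a maternally active adaptor that binds the insulin and growth factor receptors and dampens their signal, had all 3 of its probe sets lower. The brightest had 13.3 and 23.6 in L929, against 2636 and 2574 in NIH3T3. The means were 18.4 ± 7.31 in L929 and 2605 ± 43.7 in NIH3T3 (SD, n = 2 each). The log2 difference was -6.65 ± 0.18 (adjusted p = 8.85e-08), and no fold is given, since 1 of the 2 L929 arrays lay under the level. A second probe set had 22.2 and 22.4 in L929, against 442 and 354 in NIH3T3, a 13.3-fold difference (adjusted p = 2.02e-06). The third had 18.6 and 10.8 in L929, against 162 and 119 in NIH3T3 (log2 difference -2.71, adjusted p = 0.000131). The lines did not overlap on any of the 3.

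Plagl1, a paternally active zinc finger transcription factor known to regulate other imprinted genes in the mouse, had probe sets that disagreed. On the bright one L929 had 1.50 and 7.004, against 380.1 and 403 in NIH3T3, lower by at least 22.7-fold (log2 difference -5.06 ± 0.27, adjusted p = 2.98e-06). On a dim one L929 had 11.7 and 37.5, against 23.3 and 22.8 in NIH3T3, and the difference of -0.05 was not called (adjusted p = 0.933). The third stayed under the level on all arrays. The call for Plagl1 therefore rests on 1 probe set.

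At the Peg3 locus on chromosome 7, Peg3, a paternally active zinc finger protein, was lower on all 3 tested probe sets. The first had 2.45 and 2.42 in L929, against 141 and 119 in NIH3T3, lower by at least 7.48-fold (adjusted p = 1.78e-05). On the next, L929 had 2.70 and 6.48, against 117 and 119 in NIH3T3, lower by at least 6.82-fold (adjusted p = 4.22e-05). The third had 1.74 and 1.98 in L929, against 37.1 and 18.0 in NIH3T3, lower by at least 1.50-fold (adjusted p = 0.00428, and 0.0665 without NIH3T3 replicate 1). All 3 lay far under the level in L929. Its neighbours were not tested: the ubiquitin-specific protease gene Usp29, between 1.19 and 3.68 over all arrays, and the zinc finger gene Zim1, at 3.19 and 2.37 in L929, against 4.78 and 10.8 in NIH3T3.

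**Figure D2:**
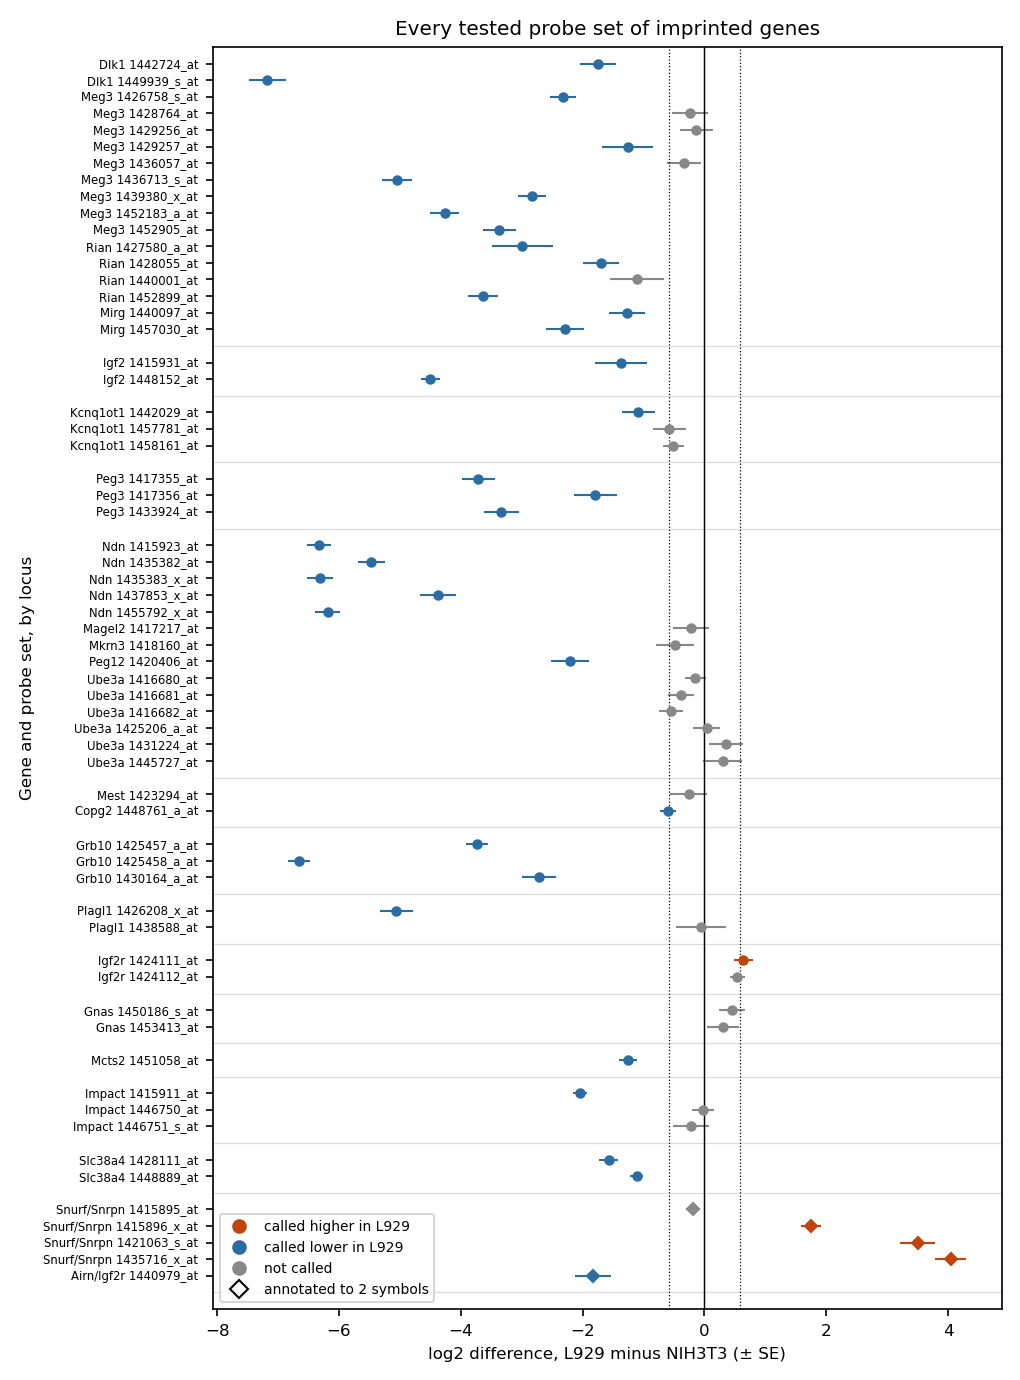
Log2 difference, L929 minus NIH3T3, with its standard error for every tested probe set of the imprinted genes, grouped by locus from top to bottom, with dotted lines at a fold of 1.5 either way and diamonds for probe sets annotated to 2 symbols. The 5 Ndn probe sets lie between -6.33 and -4.37, the 6 Ube3a probe sets between -0.56 and 0.36, and the Snurf/Snrpn diamonds at -0.19 and between 1.75 and 4.04.

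At the Snrpn locus on chromosome 7, the paternally active genes differed in their calls. Ndn encodes necdin, a MAGE family protein abundant in neurons. It was lower in L929 on all 5 tested probe sets. One gave 1.53 and 2.70 in L929, against 744 and 875 in NIH3T3, with means of 2.11 ± 0.827 in L929 and 809.5 ± 92.2 in NIH3T3 (SD, n = 2 each). That was lower by at least 46.8-fold (log2 difference -6.33 ± 0.20, limma adjusted p = 1.82e-07). For the other 4 the log2 difference lay between -6.31 and -4.37, and only 1 of them had an L929 array above the level, with 31.1 and 11.4 in L929, against 582 and 541 in NIH3T3. Peg12, a Frat family protein that binds GSK-3, had 3.07 and 8.21 in L929, against 53.4 and 54.2 in NIH3T3, lower by at least 3.12-fold (adjusted p = 0.000726). The lines did not overlap on any tested probe set of either gene.

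Magel2, another MAGE family gene, had 27.2 and 19.2 in L929, against 24.6 and 31.9 in NIH3T3, and was not called (log2 difference -0.22, adjusted p = 0.591). Mkrn3, a makorin ring finger protein, had 14.8 and 24.1 in L929, against 24.99 and 35.5 in NIH3T3 (log2 difference -0.48, adjusted p = 0.266). Both lay close to the level in both lines. Ube3a, the ubiquitin ligase E6-AP, which is maternally active in neurons and read from both copies in most other cells, had 6 tested probe sets and none was called. Its brightest had 1055 and 976 in L929, against 1356 and 937 in NIH3T3 (log2 difference -0.15, adjusted p = 0.519). The probe set with the lowest difference, -0.56, moved to -0.73 without L929 replicate 1, past the fold asked for.

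Snrpn, which encodes a small nuclear ribonucleoprotein and is read together with Snurf as 1 transcript, had only 1 dim probe set of its own, at 7.55 and 5.16 in L929, against 3.46 and 2.17 in NIH3T3. A further 6 were annotated to Snurf and Snrpn together, and the 4 that were tested disagreed. The brightest had 471 and 546 in L929, against 577 and 584 in NIH3T3, and was not called (log2 difference -0.19, adjusted p = 0.218). The other 3 were higher in L929. One of these had 195 and 169 in L929, against 3.87 and 3.14 in NIH3T3, at least 10.5-fold higher (log2 difference 4.04, adjusted p = 7.98e-06). Another had 88.6 and 113 in L929, against 2.37 and 0.777 in NIH3T3, at least 5.80-fold higher (adjusted p = 3.75e-05), and the last had 232 and 213 in L929, against 58.5 and 62.5 in NIH3T3, a 3.37-fold difference (adjusted p = 6.47e-05). These pairs of symbols stayed out of the counts. Their sign on those 3 probe sets was opposite to that of Ndn and Peg12 from the same locus and the same parental copy.

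At the Kcnq1ot1 locus on chromosome 7 only the paternally active antisense RNA Kcnq1ot1 was bright enough to test, on 3 of 6 probe sets. One was lower, with 20.4 and 28.4 in L929, against 54.1 and 67.1 in NIH3T3, a 2.12-fold difference (adjusted p = 0.0137). Leaving out 1 array ended this call, at an adjusted p of 0.0578 without L929 replicate 1 and of 0.0883 without NIH3T3 replicate 2. The brightest had 92.4 and 113 in L929, against 159 and 140.1 in NIH3T3, 1.43-fold lower and under the fold asked for (adjusted p = 0.0446). The last had 59.0 and 117 in L929, against 128 and 128 in NIH3T3 (log2 difference -0.57, adjusted p = 0.138). All 3 lay lower in L929. The gene, represented by the brightest, was not called, except without L929 replicate 2 (log2 difference -0.65, adjusted p = 0.0393) and with the mean of its probe sets (-0.72, adjusted p = 0.0174).

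The maternally active protein-coding genes of that locus were too dim to test. Cdkn1c, the cyclin-dependent kinase inhibitor p57, had 2.86 and 7.56 in L929, against 1.23 and 2.92 in NIH3T3. Phlda2, which limits placental growth, had 15.7 and 6.202 in L929, against 4.03 and 3.27 in NIH3T3. The transporter gene Slc22a18 lay between 5.33 and 15.5 in L929 and between 0.870 and 12.6 in NIH3T3. Ascl2, a placental transcription factor, lay between 0.238 and 34.0 in L929 and between 0.704 and 12.2 in NIH3T3, with a single L929 array above the level.

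A further 3 paternally active genes were lower in L929 with measurable signals on all arrays. Impact, a regulator of the amino acid-sensing kinase GCN2, had 209.6 and 220.0 in L929, against 986 and 837 in NIH3T3, a 4.11-fold difference (log2 difference -2.04 ± 0.12, adjusted p = 4.76e-06). Its other 2 probe sets were not called, at log2 differences of -0.03 and -0.23. Slc38a4, an amino acid transporter, had 241 and 187 in L929, against 586 and 714 in NIH3T3, a 2.97-fold difference (adjusted p = 8.98e-05). Its second probe set was 2.16-fold lower (adjusted p = 8.56e-05). Mcts2, a retrogene copied from Mcts1, had 82.2 and 89.7 in L929, against 217 and 213 in NIH3T3, a 2.38-fold difference (adjusted p = 0.00028). RNA of the parent gene can bind probes of a retrogene, so the Mcts2 value is uncertain in that respect.

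At the Mest locus on chromosome 6, Mest, an alpha/beta hydrolase family gene often used as a marker of mesoderm, was dim in both lines, with 16.1 and 17.5 in L929, against 26.0 and 18.0 in NIH3T3 (log2 difference -0.26, adjusted p = 0.53). Copg2, a subunit of the COPI vesicle coat, had 173 and 179.9 in L929, against 256 and 287 in NIH3T3, a 1.52-fold difference just past the fold asked for (adjusted p = 0.00592). Of 15 alternatives, 6 ended that call, among them without L929 replicate 1 (log2 difference -0.57) and without NIH3T3 replicate 2 (-0.52).

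Igf2r and Gnas had L929 arrays above the NIH3T3 arrays. Igf2r, maternally active, encodes the receptor that carries mannose 6-phosphate enzymes and IGF2 to lysosomes. Its first probe set had 272 and 300.4 in L929, against 155 and 211 in NIH3T3, 1.56-fold higher (log2 difference 0.64, adjusted p = 0.0137). That call ended in 5 alternatives, among them without L929 replicate 2 (adjusted p = 0.0735), without NIH3T3 replicate 1 (0.067) and without scaling (log2 difference 0.36). The brighter second one had 546 and 529 in L929, against 401 and 336 in NIH3T3, 1.45-fold higher and under the fold asked for (adjusted p = 0.0074), and passed it without NIH3T3 replicate 1 (log2 difference 0.67). On both the lines did not overlap, though the gene-level count holds Igf2r as not called. A probe set annotated to both Igf2r and its antisense RNA Airn was lower, with 4.03 and 4.33 in L929, against 31.7 and 39.1 in NIH3T3, at least 2.04-fold (adjusted p = 0.00152). Gnas, the stimulatory G protein alpha subunit, had 5790 and 5716 in L929, against 5094 and 3471 in NIH3T3, 1.37-fold higher and not called (adjusted p = 0.127), and was called without NIH3T3 replicate 1 (log2 difference 0.73).

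The genes of the Peg10-Sgce locus and of 4 single-gene loci could not be tested. Peg10, a retrotransposon-derived gene, had 14.9 and 8.46 in L929, against 10.0 and 3.03 in NIH3T3. The calcitonin receptor gene Calcr had 13.6 and 5.24 in L929, against 8.58 and 9.50 in NIH3T3. Sgce (epsilon-sarcoglycan) and Asb4 each exceeded the level on 1 NIH3T3 array only, at 25.8 for Sgce and 20.0 for Asb4. Nnat, the neuronatin gene, had 4.65 and 8.05 in L929, against 3.16 and 14.7 in NIH3T3. Gatm, which makes a precursor of creatine, had 1.92 and 0.700 in L929, against 4.32 and 1.48 in NIH3T3. Rasgrf1, a Ras exchange factor, lay between 0.644 and 32.2 in L929 and between 1.38 and 26.7 in NIH3T3, and Nap1l5 is described with the gene that surrounds it. In all, 11 of the 36 genes stayed under the level on every array with every probe set annotated to them alone. That only bounds these signals and does not show that the genes were silent. Snrpn is among the 11, though its brightest probe set shared with Snurf had 471 and 546 in L929, against 577 and 584 in NIH3T3.

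The other genes at imprinted loci were called in both directions. Of 41 such genes, reported as imprinted in some tissue or lying within the clusters, 26 were tested, and 4 were higher in L929, 7 lower and 15 not called, with a median log2 difference of 0.03. The called shares were 15.4% higher and 26.9% lower, beside 17.3% and 17.6% of all tested genes. Dcn, the collagen-binding proteoglycan decorin, had 18.997 and 2.78 in L929, against 1382 and 1572 in NIH3T3 (log2 difference -6.44, adjusted p = 3.68e-06). Pde10a, a cyclic nucleotide phosphodiesterase, had 6.06 and 11.8 in L929, against 98.0 and 76.0 in NIH3T3 (log2 difference -2.50, adjusted p = 0.000252), and Casd1, a sialic acid O-acetyltransferase, was 1.96-fold lower. The AMP deaminase gene Ampd3 was 4.81-fold higher, with 553 and 513 in L929, against 81.3 and 134 in NIH3T3 (adjusted p = 4.81e-05). Pon3, a paraoxonase, was 3.43-fold higher and Sfmbt2, a Polycomb-related protein, 1.55-fold higher. The Sfmbt2 call ended without L929 replicate 2 (adjusted p = 0.0624), without scaling (log2 difference 0.36), with an offset of 32 and with the mean of its probe sets.

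Some imprinted retrogenes lie inside an intron of another gene. H13, the signal peptide peptidase gene around Mcts2, was 2.28-fold higher, with 1526 and 1741 in L929, against 757 and 666 in NIH3T3 (adjusted p = 6.89e-05), while Mcts2 was lower. Without scaling H13 was not called (log2 difference 0.90, adjusted p = 0.0629). Herc3, a HERC family gene around Nap1l5, was at least 3.11-fold lower, with 5.05 and 7.397 in L929, against 49.8 and 58.0 in NIH3T3 (adjusted p = 0.00054), while Nap1l5 itself was at 2.88 and 2.18 in L929, against 7.58 and 3.02 in NIH3T3.

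**Figure D3:**
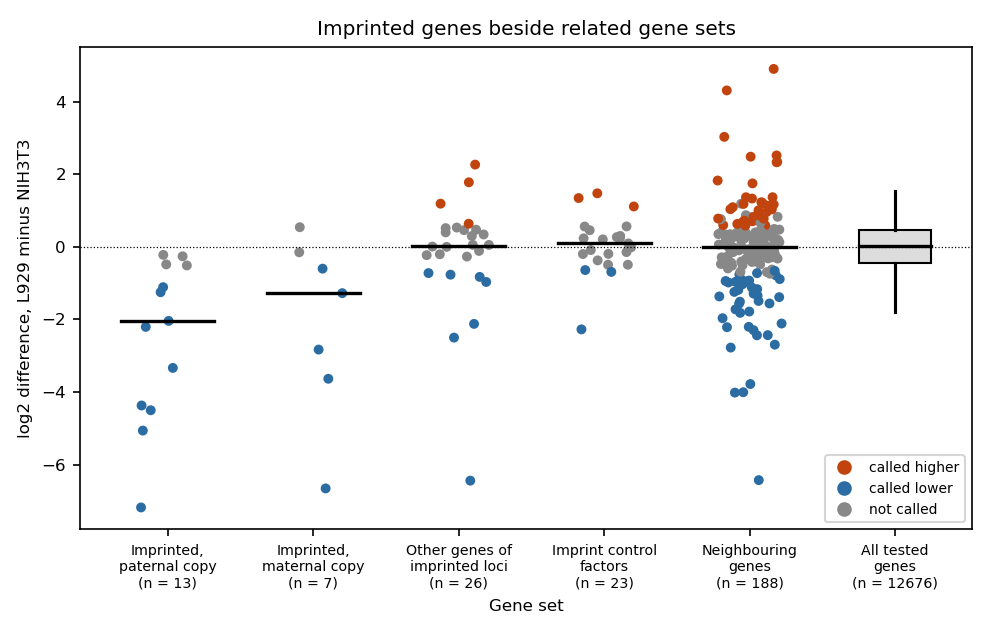
Log2 difference, L929 minus NIH3T3, of each tested gene (points, coloured by call) with a bar at the median of each set; the box at the right spans the 25th to 75th percentiles of all 12676 tested genes with whiskers at the 5th and 95th. The medians are -2.04 and -1.28 for imprinted genes with a paternally and a maternally active copy, and 0.03, 0.09 and -0.01 for the other genes of imprinted loci, the imprint control factors and the neighbouring genes.

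The enzymes and DNA-binding factors that set or keep imprints were mixed. Of 25, 23 were tested, and 3 were higher in L929, 3 lower and 17 not called, with a median of 0.09. A share of 13% was higher and 13% lower, beside 17.3% and 17.6% of all tested genes. Dnmt3b, a de novo DNA methyltransferase, had 183 and 196 in L929, against 65.2 and 60.8 in NIH3T3, 2.78-fold higher (adjusted p = 0.000189). Uhrf1, which brings the maintenance methyltransferase to newly copied DNA, had 1389 and 1259 in L929, against 541 and 492 in NIH3T3, 2.54-fold higher (adjusted p = 1.96e-05). Tet2, a methylcytosine dioxygenase, was 2.16-fold higher (adjusted p = 0.00977), a call that ended without L929 replicate 2 (adjusted p = 0.06) and without scaling (adjusted p = 0.172). The maintenance methyltransferase itself, Dnmt1, had 903 and 960 in L929, against 939 and 808.5 in NIH3T3 (log2 difference 0.09, adjusted p = 0.505).

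Zfp57, the zinc finger protein that binds the methylated motif described above, had 2.71 and 17.3 in L929, against 65.3 and 78.5 in NIH3T3 (log2 difference -2.27, adjusted p = 0.00236). Ehmt2, a histone H3 lysine methyltransferase, was 1.61-fold lower and Smchd1, a chromatin protein of silenced loci, 1.56-fold lower. Both were under the fold asked for with 1 array left out, Ehmt2 without NIH3T3 replicate 1 (log2 difference -0.55) and Smchd1 without NIH3T3 replicate 2 (-0.50). With the mean of a gene's probe sets neither was called, and Smchd1 was also not called without scaling or under median scaling. Ctcf, the insulator protein of the H19-Igf2 control region, was 1.37-fold higher and under the fold asked for (adjusted p = 0.00384), which it passed with the mean of its probe sets (log2 difference 0.69).

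Genes beside the imprinted loci were taken from the RefSeq gene order, the 5 nearest tested protein-coding genes on each side. The imprinted genes and all genes of the other lists, markers included, were passed over in this choice. Of 188 neighbours, 35 were higher in L929, 41 lower and 112 not called, with a median difference of -0.01. The called shares were 18.6% higher and 21.8% lower, beside 17.3% and 17.6% of all tested genes. Beside the Dlk1-Meg3 locus, 1 of 10 was higher (the mitochondrial carrier gene Slc25a29, 1.13 on the log2 scale) and 1 lower (Slc25a47, -0.89, a call that ended in 8 alternatives, with an adjusted p of 0.231 without L929 replicate 2, 0.0731 without NIH3T3 replicate 1 and 0.191 without NIH3T3 replicate 2). Beside H19-Igf2, Mrpl23 (1.37) and Mrgpre (1.75) were higher and Ctsd, the lysosomal protease cathepsin D, was lower (-0.93). Beside Peg3 only Vmn2r29 was called, lower (-0.94), and without any 1 array it was not called (adjusted p between 0.051 and 0.225). Beside Snrpn only Klf13 (-2.78) and Mtmr10 (-0.92) were called, both lower.

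Other loci had called neighbours on both sides of 0. Beside Grb10, Plek (3.03) was higher and Spata48 (-1.24) and Tns3 (-1.17) lower, Spata48 at an adjusted p of 0.056 without NIH3T3 replicate 2. Beside Plagl1, Fuca2 (2.34) was higher and Adat2 (-2.21) lower. Beside Mcts2, Trib3 (2.48) was higher and Sox12 (-2.43) lower, and beside Slc38a4, Rapgef3 (2.33) was higher and Amigo2 (-3.78) lower. Amigo2 was not called with either NIH3T3 array left out, when another of its probe sets stood for it (-0.38 without replicate 1 and -0.42 without replicate 2). Beside Mest, Tmem209 (2.52) was higher and Exoc4 (-0.94) lower. With the mean of its probe sets Exoc4 was at -0.52, under the fold asked for. Beside Impact 5 of 10 neighbours were lower and 0 higher. Among these 5, Cdh2, the N-cadherin gene, had 0.881 and 5.88 in L929, against 819 and 1097 in NIH3T3. Cdh2 was lower by at least 54.9-fold (adjusted p = 6.39e-07). Kctd1 (-1.49), another of these 5, moved to -0.49 without NIH3T3 replicate 1.

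**Figure D4:**
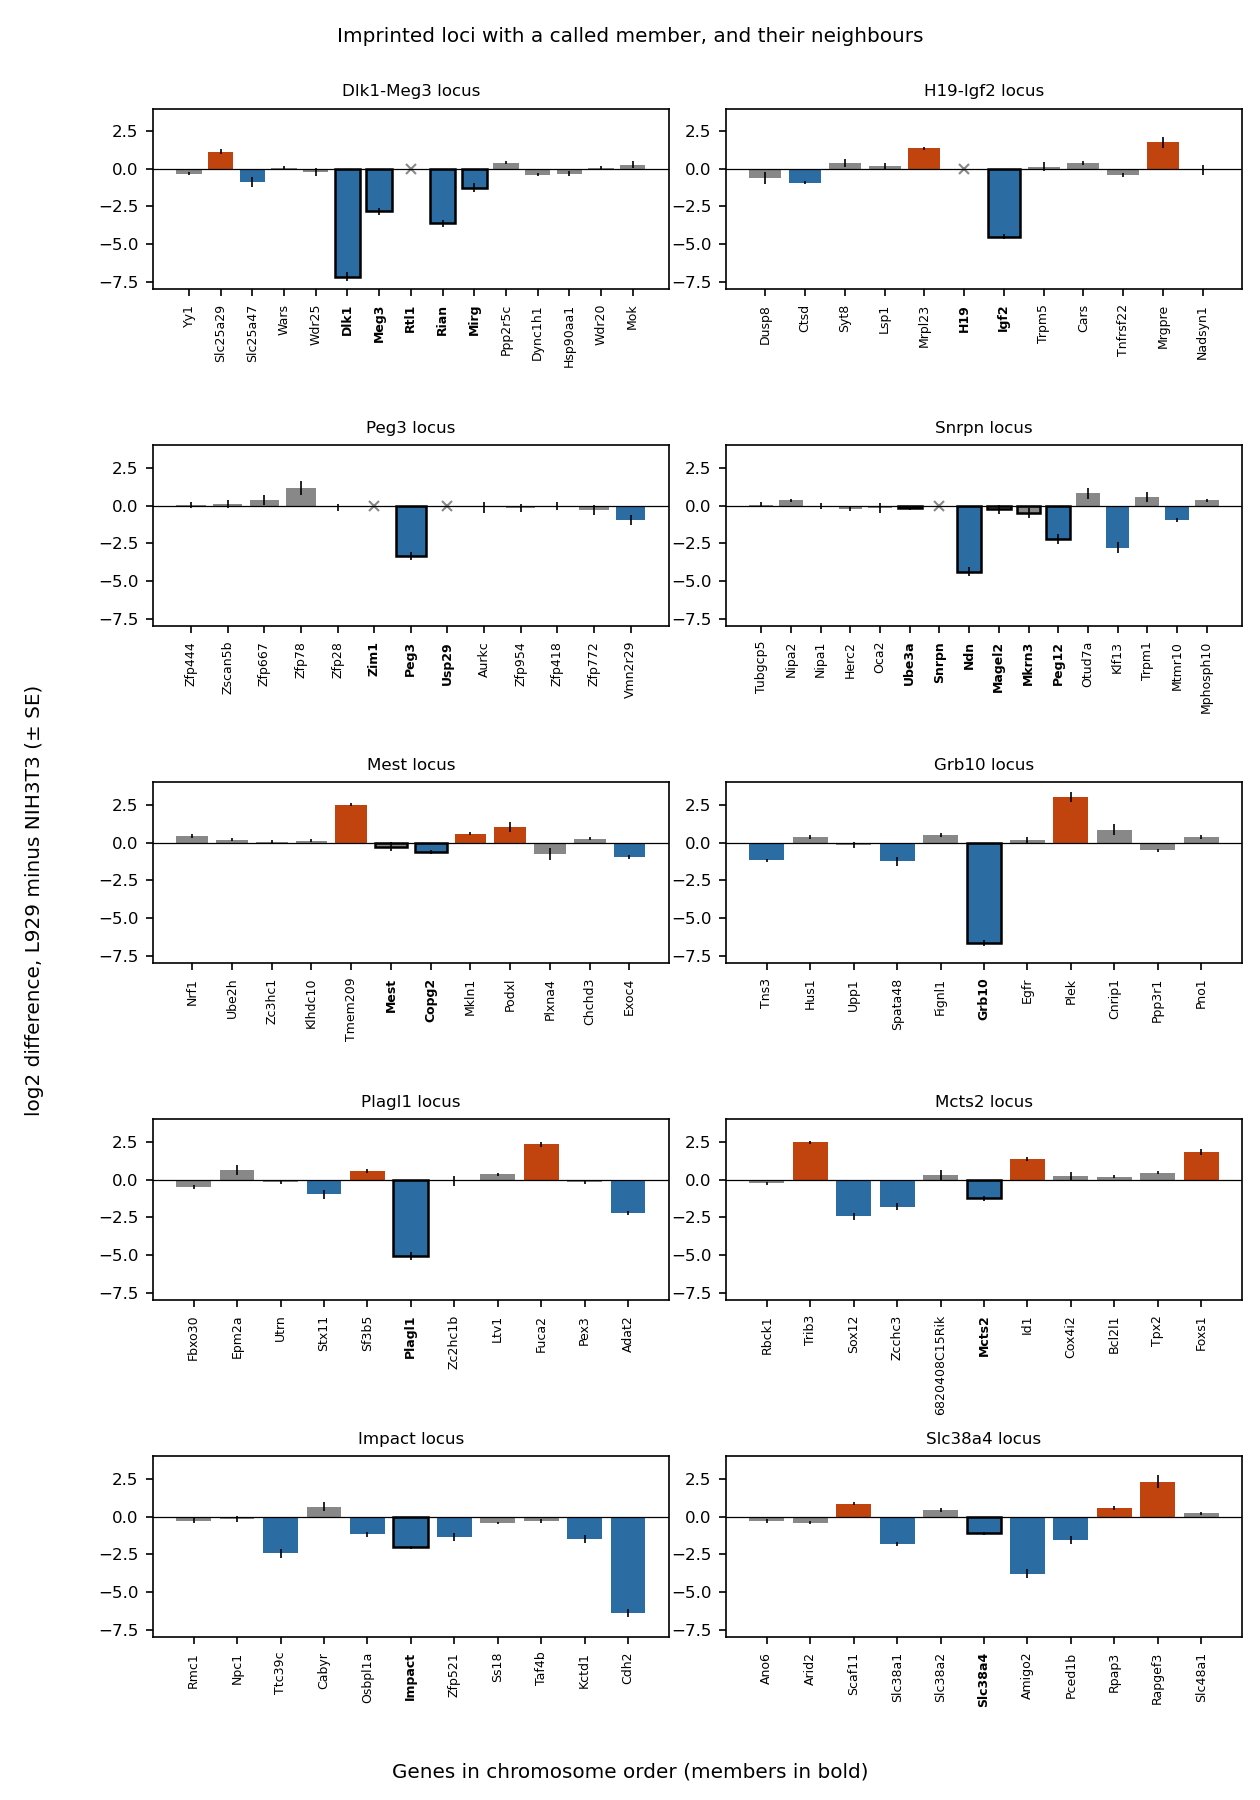
Log2 difference, L929 minus NIH3T3, with its standard error for the imprinted genes (bold, outlined) and up to 5 tested neighbours on each side in gene order at the 10 loci with a called imprinted gene; red is higher, blue is lower, grey is not called and a cross marks a member that was not tested. Beside Dlk1-Meg3 the 4 tested imprinted genes lie between -7.18 and -1.28, while 8 of 10 neighbours are not called.

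Markers were read to check the labelled cell type. All 10 fibroblast markers were tested, with Col1a1 at 1212 and 1236 in L929, against 1935 and 1699 in NIH3T3. Of these, Pdgfrb and Col5a1 were higher in L929, and Fn1, Pdgfra and Thy1 were lower, Thy1 with 18.0 and 30.0 in L929, against 2193 and 2253 in NIH3T3. Their summed signal was 38317 and 39767 in L929, against 44650 and 33528 in NIH3T3. Of the 4 neural markers, Tubb3, Snap25 and Syn1 were lower in L929 and Gfap was higher, and their summed signal was 41.9 and 67.0 in L929, against 172 and 179.1 in NIH3T3. Tubb3, Snap25 and Syn1 lay under the level on both L929 arrays and above it on both NIH3T3 arrays. Ndn, Peg3 and Nnat are genes that neurons also use, and the part of these markers in the results was not tested. Of the blood markers, Ptprc, Aif1 and Cd3e lay under the level on all arrays, and Cd68 was lower, with 32.6 and 30.6 in L929, against 66.6 and 64.1 in NIH3T3. Of the endothelial markers, Pecam1 lay under the level on all arrays, while Kdr and Cdh5 exceeded it on some. The epithelial markers Epcam and Krt8 were above it on all arrays and not called. Krt18 lay under the level on all arrays and Cdh1 exceeded it on 1 L929 array only, so neither was tested. The muscle marker Des was higher, with 118 and 174 in L929, against 8.92 and 49.2 in NIH3T3, and Myod1 was not called. Myog lay under the level on all arrays, as did the adipocyte markers Adipoq and Lep and the pluripotent cell markers Pou5f1 and Nanog. The trophoblast marker Tpbpa exceeded the level on 1 L929 array only. Plin1 and Prl3d1 had no probe set of their own. Replicate arrays correlated at 0.982 for L929 and 0.981 for NIH3T3, and arrays of different lines at 0.835 to 0.843 over all tested probe sets. Before all were scaled to 1 mean, the median deposited signal was 23.5 and 24.006 on the L929 arrays, against 23.9 and 38.3 on the NIH3T3 arrays, so the second NIH3T3 array was brighter. The spiked-in hybridisation control probe sets averaged 1822 and 1669 in L929, against 1818 and 1615 in NIH3T3 as deposited, and 1957 and 1895 in L929, against 2051 and 1173 in NIH3T3 after scaling. They did not follow the brightness of that array, and the counts without scaling are given in the closing section.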

How the data were processed

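Each of the 4 arrays came as 1 column of deposited linear signal intensity per probe set. The authors' values were made with MAS5, per the submitters' processing notes; the version and scaling target, and any build, are not stated there, and no array scan or detection call was used. Of 45037 non-control probe sets, 34945 had 1 gene symbol, 932 had several and 9160 had none in the platform annotation; 64 controls were left out. No other per-sample columns were used.

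All arrays were brought to 1 trimmed mean (2% off each end), and log2(signal + 8.01) was taken, the offset being the 25th percentile of all signals. Probe sets were tested where both arrays of at least 1 line exceeded 17.3, the 40th percentile, a choice of this work and not a measured detection limit. L929 minus NIH3T3 was fitted on all 4 arrays with limma 3.58.1 in R 4.3.3 (lmFit, eBayes with trend), with Benjamini-Hochberg adjustment over all tested probe sets, or over all tested genes with the tested probe set of highest mean log2 signal standing for each. Per the series' design text the authors called genes at an adjusted p under 0.05 and a fold above 1.5, and the same thresholds were used. A p printed beside a probe set's values is that of the probe set fit; a p for a listed, control or neighbouring gene is that of the gene fit. The fit was first tested on simulated data. With 2 arrays per line, their number limits the precision.

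The 40 genes and all lists were chosen with earlier results of these data known. All members were named; of the other genes of imprinted loci and the control factors, up to 4 called genes per direction by size plus Dnmt1, Zfp57 and Ctcf; of the neighbours, up to 2 per direction at each locus with a called member, of which the text gives a part. Alternatives changed the scaling, offset, filter, variance trend, gene summary, replicate block and each array in turn. Promoters and microRNAs came from RefSeq tables on GRCm38.p6.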

Additional observations from a re-analysis of the deposited data

How the results depend on the processing

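The count of imprinted genes lower in L929 lay between 13 and 15 under every alternative that kept all 4 arrays. No called imprinted gene reversed its direction under any of the 15 alternatives. Some calls of neighbours turned on which probe set stood for the gene, as for Amigo2 beside Slc38a4. Beside Nap1l5, Smarcad1, called higher (log2 difference 0.78), moved to -0.54 without L929 replicate 1 and to -0.64 without L929 replicate 2. Vopp1, called lower (-4.02), moved to -0.13 without NIH3T3 replicate 1 and to 0.22 without NIH3T3 replicate 2. For both genes the value from all 4 arrays lies outside these values, so another probe set then stood for the gene. With the mean of its probe sets Smarcad1 was at 0.09. Ube3a, which was not called, changed sign without NIH3T3 replicate 1 (log2 difference 0.11). The count of imprinted genes higher in L929 was 1 under median scaling and 1 with the mean of a gene's probe sets, both times Igf2r, and 0 to 2 when 1 array was left out (Gnas and Igf2r without NIH3T3 replicate 1, Ascl2 without L929 replicate 1). Among maternally active genes it was 1 under median scaling, 1 with the mean of probe sets and 0 to 1 with an array left out. Imprinted probe sets higher in L929 numbered 0 without scaling, 2 under median scaling, 0 with an offset of 32, 0 without the variance trend and 0 to 2 with an array left out. Without scaling, 2 other genes of imprinted loci were higher and 4 lower, 13 neighbours were higher, and 1484 probe sets and 794 genes of the whole array were higher; higher calls then made up 31.3% of all calls, against 49.5% with scaling, and the median of all genes moved to -0.26 and that of the imprinted genes to -1.52. Imprint control factors higher in L929 numbered 5 under median scaling, 5 with the mean of probe sets and 3 to 5 with an array left out (5 without NIH3T3 replicate 2), and 1 was lower with the mean of probe sets. Copg2 lost its call in 6 alternatives. Same-numbered arrays deviated with a correlation of 0.014. The labels do not say whether they were handled together, and this value cannot settle it. With the replicate block 14 imprinted genes were lower and 0 higher, beside 2172 genes higher and 2233 lower over the array. Signals under 17.3 only bound a gene's level.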
